A study of Mus musculus with 14 samples.

Results

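The motile cilia genes of the mouse lung were taken as every gene whose symbol has the form Dnah, Ift, Tekt, Rsph or Spag followed by a number, plus Foxj1. 54 symbols of the mouse reference gene table had that form, and 37 of them had a probe on the array, out of 17178 named genes. 36 of the 37 were tested, because the probe of Spag11a stood well above background on 0 arrays. The 17 genes without a probe were Dnah1, Dnah3, Dnah6, Dnah7a, Dnah7b, Dnah7c, Dnah10, Dnah12, Dnah14, Dnah17, Rsph3b, Rsph4a, Rsph14, Spag8, Spag11b, Tekt3 and Tekt5.

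Lung RNA came from C57BL/6N male mice that had received 1 of 4 suspensions into the trachea 6 months earlier. Ctrl mice (3 lungs) received phosphate-buffered saline, VCF mice (4) carbon fibre before recycling, CCF mice (3) fibre after the carbonization step, and RCF mice (4) fibre after the firing step, each fibre at 200 µg per mouse. Each lung was an independent biological sample by the design text and was read on 1 one-colour array. The comparisons ask how transcripts of the airway's beating cilia stood after each form of fibre, relative to saline and to each other.

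Motile cilia line the conducting airways, where multiciliated cells drive mucus and trapped particles out of the lung. Each cilium is built on an axoneme of microtubule doublets, on which dynein heavy chains generate sliding, radial spokes and the central pair control it, and tektins run along the doublets. Intraflagellar transport carries parts in and out of the cilium, with complex B on trains towards the tip and complex A on the return. FOXJ1 is the transcription factor that switches on this programme, together with RFX factors, which bind the X-box motif. The symbol rule also takes in genes with other work: most transport genes serve primary cilia in many cell types, and several Spag genes were named for sperm antigens without being cilia parts.

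No member passed the test (limma, Benjamini-Hochberg adjusted p under 0.05 over all probes) in any of the 7 comparisons between groups. Among lungs of the same group, the median SD was 0.26 over members beside 0.23 over all genes tested. 5 of the 36 tested members, Tekt1, Rsph9, Tekt4, Ift57 and Spag6l, passed a test of rising along with markers of ciliated cells. That is 13.9% of them, where 1.53% of 29263 probes and 282 of 14460 genes passed with positive slopes. The count was 2 to 8 with 1 lung left out, and no member passed in some other settings.

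The promoters of 30 of the 37 measured members were in the RefSeq promoter table (GRCm38.p6, 250 bases before to 50 after the start site). One arm of the X-box, GTTGCC on either strand, was in 11 of the 30 (36.7%) and in 14.1% of the 27025 genes of the table. Whole X-boxes in exact letters, searched as GTTGCC, then 1, 2 or 3 bases, then GGCAAC, were in 0 of the 30 and in 0.0518%, 0.111% and 0.0296% of all genes. X-boxes with other letters in either arm were not searched for, so how many promoters hold one is not known. The forkhead letters GTAAACA on either strand were in 0 of the 30 and in 4.05% of all genes. A whole X-box also counts as a match to its arm, and a match describes the sequence only. 5 stretches are shown, each the 120 bases before the start site, with X-box arms in capitals. They were chosen after their values were seen. Tekt1 and Ift57 rose with the ciliated cell markers and hold 2 arms each. Rsph9 rose with them and holds 0. Tekt2 and Spag16 hold 2 each and did not pass, with slopes on the markers of -0.38 (SE 0.48) and 1.13 (SE 0.34).
Tekt1, chr11:72361883-72362002, minus strand: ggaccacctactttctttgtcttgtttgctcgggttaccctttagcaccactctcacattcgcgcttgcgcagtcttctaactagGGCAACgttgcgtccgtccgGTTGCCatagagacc
Ift57, chr16:49699174-49699293, plus strand: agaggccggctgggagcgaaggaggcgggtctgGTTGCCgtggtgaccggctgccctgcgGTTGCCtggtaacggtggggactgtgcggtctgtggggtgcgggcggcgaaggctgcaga
Rsph9, chr17:46144201-46144320, minus strand: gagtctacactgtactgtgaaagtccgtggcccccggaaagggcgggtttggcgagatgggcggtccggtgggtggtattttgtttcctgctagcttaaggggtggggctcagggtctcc
Tekt2, chr4:126325689-126325808, minus strand: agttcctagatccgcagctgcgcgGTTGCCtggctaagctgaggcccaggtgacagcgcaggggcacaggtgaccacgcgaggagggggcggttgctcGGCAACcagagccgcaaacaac
Spag16, chr1:69826850-69826969, plus strand: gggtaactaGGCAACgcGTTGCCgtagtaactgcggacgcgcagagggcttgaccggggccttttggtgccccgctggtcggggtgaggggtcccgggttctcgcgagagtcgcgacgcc
In Tekt1 the arms begin at positions -35, on the opposite strand, and -15 relative to the start. In Ift57 both lie on the gene's own strand, at -87 and -60. Spag16 holds an inverted pair at -111 and -103, and Tekt2 a pair at -96 and -22 from the first of its listed start sites. Of the 5 members that passed, 4 had an arm in the whole 300-base window, those of Tekt4 and Spag6l lying after the start at positions 8 and 34.

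Across arrays, the 75th percentile of processed intensity lay between 724.7 and 1345.6 units, 63.07% to 70.6% of 41174 probes stood well above background, and no probe was saturated. The number of arrays limits the precision. All values below are log2 levels after subtraction of each array's 75th percentile, given relative to the mean of the 3 Ctrl arrays. Of the 36 tested members 34 stood well above background on all 14 arrays. Rsph6a did so on 3 and Spag6 on 9, so their values lie near background. The next dimmest were above background on all arrays but low relative to the 75th percentile. They were Spag4 at -4.81 to -4.05, Spag5 at -4.34 to -3.01, Spag16 at -4.03 to -2.51 and Spag17 at -3.54 to -0.67. All 8 measured ciliated cell markers that are not members, all 5 of alveolar type 2 cells and all 4 of endothelium were above background on every array. Liver markers (2 tested genes) stood 5.31 above the Ctrl mean in CCF replicate 2 and 5.06 in RCF replicate 1, thymus markers 3.72 in CCF replicate 3, and adipose markers 2.45 in VCF replicate 1, so results are also given without these 4 lungs, a choice made after the data were seen. Fewer ciliated cells in a lung and less RNA per ciliated cell cannot be told apart in whole-lung RNA.

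The mean over the 36 members showed overlapping groups. It was -0.26, 0.12 and 0.14 in the Ctrl lungs, 0.24, -0.0085, -0.20 and -0.17 in VCF, -0.18, 0.11 and -0.13 in CCF, and 0.21, -0.08, 0.16 and -0.0077 in RCF. The highest and the lowest lung of the series, VCF replicate 1 and Ctrl replicate 1, were in different groups, and each of the other lungs lay between them. The mean of the 8 ciliated cell markers followed the same order at the ends, with 0.57 in VCF replicate 1 and -0.44 in Ctrl replicate 1, and was 0.023 ± 0.39 (SD, n = 4) in VCF, -0.039 ± 0.35 (SD, n = 3) in CCF and 0.082 ± 0.15 (SD, n = 4) in RCF.

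**Figure D1:**
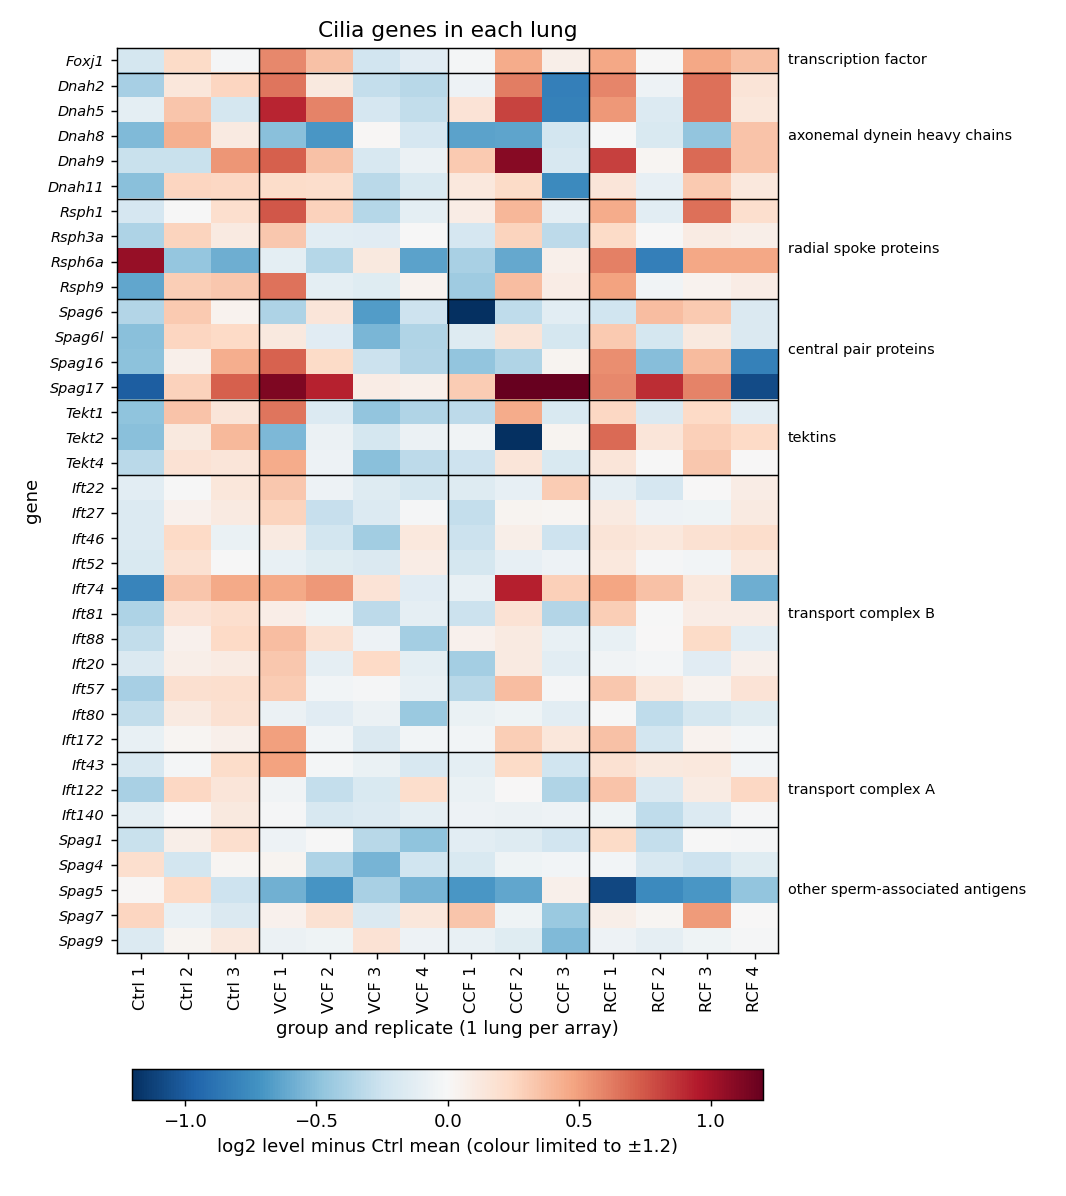
Log2 level of each of the 36 tested genes (rows, grouped by role) in each of the 14 lungs (columns, grouped by treatment), relative to the Ctrl mean. Ctrl replicate 1 is blue in most rows and VCF replicate 1 red in most, and the mean over genes overlaps between treatments, while Spag5 is blue in the VCF and RCF lungs.

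In VCF against Ctrl, 0 of the 36 members passed, where 0.0102% of 29271 probes did. 16 members were above and 20 below 0, with a median difference of -0.022 beside -0.02 for all 14468 genes tested. In CCF against Ctrl 0 passed (0% of probes), 11 were above and 25 below, and the median was -0.084 beside -0.042. In RCF against Ctrl 0 passed (0% of probes), 26 were above and 10 below, and the median was 0.095 beside -0.0019. These 3 comparisons use the same Ctrl lungs. Without Ctrl replicate 1 the 3 medians were -0.17, -0.23 and -0.078, so the RCF value was then below 0. Averaging the 3 fibres against Ctrl, 0 passed (0.00342% of probes) and the median was -0.027 beside -0.025.

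Between fibres, 0 members passed in CCF against VCF, RCF against VCF or RCF against CCF, and 0% of probes did in each. The members' median difference was 0.12 for RCF against VCF (26 of 36 above 0) and 0.16 for RCF against CCF (27 of 36), where all genes had 0.011 and 0.03. CCF against VCF had -0.039 (15 of 36 above 0) beside -0.013, or 0.074 without VCF replicate 1. The spread of the member mean between lungs of a group was 0.18 (SD pooled over groups), larger than each of these medians. At an unadjusted p under 0.05 in limma, the members called were 1 in VCF (8.26% of probes), 0 in CCF (6.59%), 1 in RCF (5.34%) and 1 in all fibres (6.66%) against Ctrl, and 0 in CCF against VCF (5.8%), 0 in RCF against VCF (5.29%) and 2 in RCF against CCF (7.9%), each a smaller share than the background. The 2 in RCF against CCF were Tekt2 and Spag6, and the Spag6 probe was above background on 1 of 3 CCF arrays. Within slides, which held 1 lung of each group at most, the RCF against VCF median was 0.48 on slide 3 and -0.32 on slide 4. Slide 4 held no Ctrl lung and slide 2 no CCF lung, and the main fit had no slide term. VCF replicate 1 and CCF replicate 2 were both on slide 4.

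**Figure D2:**
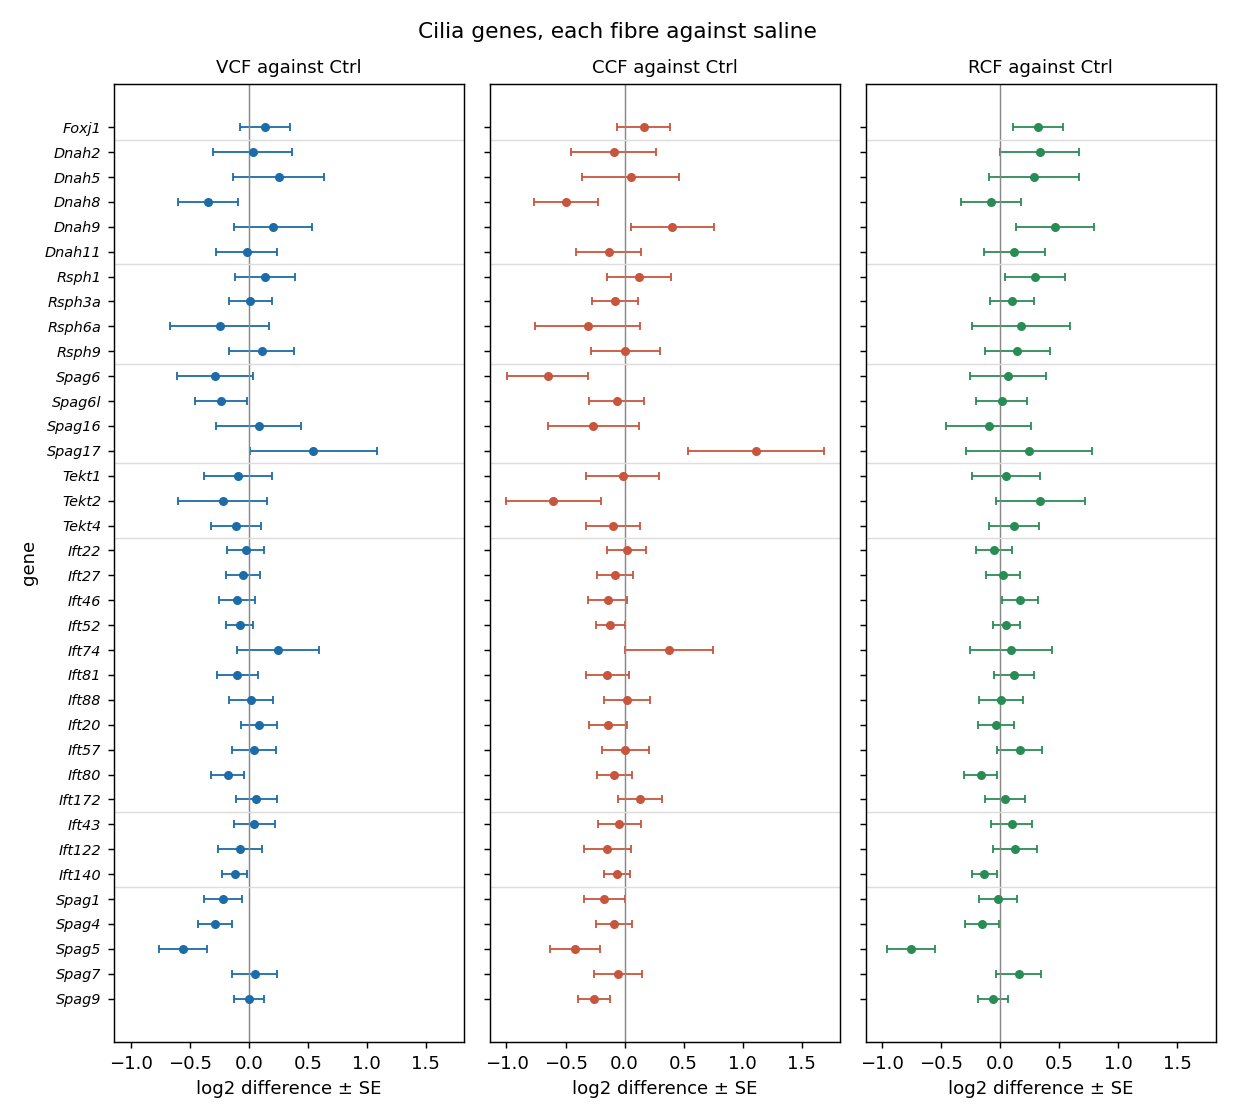
Log2 difference from Ctrl (horizontal axis) with its standard error from limma for each tested gene, for VCF, CCF and RCF. Spag5 lies at -0.56 in VCF and -0.76 in RCF, and Spag17, with a wide error, at 1.12 in CCF.

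Foxj1, the regulator of the programme, had a level of -0.21, 0.23 and -0.015 in the Ctrl lungs, 0.57, 0.35, -0.23 and -0.14 in VCF, -0.028, 0.44 and 0.071 in CCF, and 0.46, -0.0058, 0.46 and 0.36 in RCF. RCF lungs were high except replicate 2, and every fibre group overlapped Ctrl. The difference from Ctrl was 0.14 (SE 0.21) in VCF, 0.16 (SE 0.23) in CCF and 0.32 (SE 0.21, adjusted p = 0.991) in RCF.

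The dynein heavy chains were among the most variable members, with a median within-group SD of 0.47 over 5 genes, beside 0.26 over all members and 0.23 over all genes tested. Dnah5, a motor of the outer arm, was at -0.12, 0.33 and -0.21 in Ctrl, 0.92, 0.59, -0.20 and -0.30 in VCF, 0.16, 0.81 and -0.82 in CCF and 0.52, -0.17, 0.66 and 0.14 in RCF. Dnah9, its partner in the outer arm, was at -0.27, -0.27 and 0.53 in Ctrl, 0.72, 0.35, -0.19 and -0.074 in VCF, 0.31, 1.10 and -0.19 in CCF and 0.82, 0.023, 0.68 and 0.34 in RCF. Both were high in VCF replicate 1, CCF replicate 2 and RCF replicates 1 and 3, and all groups overlapped. Dnah9 differed from Ctrl by 0.47 (SE 0.33) in RCF, 0.40 (SE 0.35) in CCF and 0.20 (SE 0.33) in VCF, none of which passed. Dnah11, another outer arm chain, differed from Ctrl by -0.018 in VCF, -0.13 in CCF and 0.12 in RCF (SE 0.26 to 0.28).

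Of the radial spoke genes, Rsph1 and Rsph9 encode proteins of the spoke head. Rsph9 was at -0.62, 0.30 and 0.32 in Ctrl, 0.65, -0.11, -0.15 and 0.045 in VCF, -0.43, 0.37 and 0.086 in CCF and 0.49, -0.044, 0.046 and 0.086 in RCF. Its lowest lung was Ctrl replicate 1 and its highest VCF replicate 1, and its group differences were 0.0077 to 0.14 (SE 0.28 to 0.30). Rsph1 differed from Ctrl by 0.29 (SE 0.25) in RCF, with overlapping lungs. Rsph6a, a spoke protein of sperm, was above background on 1 of 3 Ctrl, 0 of 4 VCF, 0 of 3 CCF and 2 of 4 RCF arrays, so no fold is given.

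The central pair genes held the widest range. Spag17, a large protein of the central apparatus, was at -0.99, 0.27 and 0.72 in Ctrl, 1.12, 0.93, 0.092 and 0.06 in VCF, 0.31, 1.80 and 1.24 in CCF and 0.57, 0.88, 0.59 and -1.07 in RCF. Its 3 CCF lungs lay within or above the Ctrl range, and the CCF against Ctrl difference was 1.12 (SE 0.57, adjusted p = 0.774). It was 0.62 without Ctrl replicate 1, 0.58 with normexp background correction and 0.31 without the 4 lungs named above, which leaves 1 CCF lung. Spag16 differed from Ctrl by -0.27 (SE 0.39) in CCF and by 0.084 in VCF and -0.097 in RCF. Spag6l, another central pair gene, differed by 0.17 (SE 0.22) between CCF and VCF. Spag6, its close copy, was above background on 2 of 3 Ctrl, 2 of 4 VCF, 1 of 3 CCF and 4 of 4 RCF arrays, so no difference is given for it. Cross-hybridization between the copies was not tested.

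Among the tektins, filament proteins of the doublets, Tekt1 and Tekt2 differed in where their extremes lay. Tekt1 was at -0.48, 0.34 and 0.14 in Ctrl, 0.64, -0.16, -0.48 and -0.36 in VCF, -0.31, 0.45 and -0.18 in CCF and 0.25, -0.17, 0.24 and -0.12 in RCF. Tekt2 was at -0.50, 0.11 and 0.39 in Ctrl, -0.54, -0.073, -0.21 and -0.071 in VCF, -0.045, -1.80 and 0.034 in CCF and 0.68, 0.15, 0.29 and 0.24 in RCF. CCF replicate 2 was the lowest lung of the series for Tekt2 and the second highest for Tekt1. The 4 RCF lungs were above all CCF and all VCF lungs for Tekt2. RCF exceeded CCF by 0.94 (SE 0.38, adjusted p = 0.576), or by 0.34 without CCF replicate 2, and VCF by 0.56 (SE 0.35). Besides Tekt2, the lungs did not overlap for Ift46 in RCF against VCF and against CCF and for Ift52 in RCF against CCF. This makes 2 of 36 members higher in the first comparison and 3 of 36 in the second, where 1.37% and 5.45% of probes did so. At 1 probe per gene, 227 and 998 of 14468 genes did so. In CCF against VCF the lungs were apart for 1 member lower, where 4% of probes and 376 of 14468 genes were. It was Spag9, a scaffold protein of stress kinase signalling, at -0.25 (SE 0.13). That value is from the brightest probe, and the tested probes of Spag9 differed in sign in this comparison. Ift52 was named after its values were seen.

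**Figure D3:**
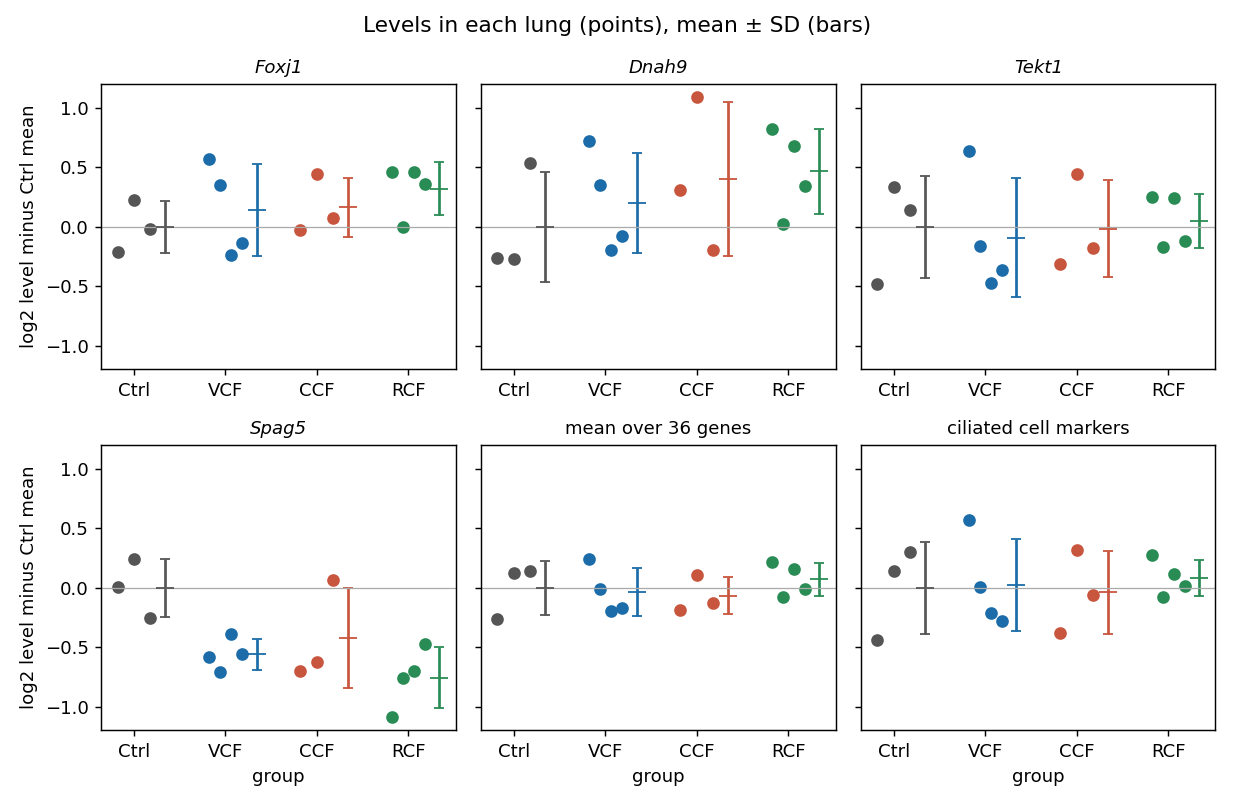
Log2 level relative to the Ctrl mean in each lung (points) with mean and SD (bars) by group, for 4 genes, for the mean over the 36 tested genes and for the 8 ciliated cell markers. Spag5 lies below every Ctrl lung in all VCF and RCF lungs, while the groups overlap in the other 5 panels.

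The transport genes had a smaller median spread than the axonemal genes. The median within-group SD was 0.19 over 11 complex B genes and 0.22 over 3 complex A genes, beside 0.48 over the central pair genes. That last median includes the dim Spag6, Spag16 and Spag17, and the brighter Spag6l had 0.30. Ift88, a core complex B protein, was at -0.29 to 0.24 in Ctrl and -0.41 to 0.37 in the fibre lungs, and its differences from Ctrl were 0.02 (SE 0.18), 0.023 (SE 0.20) and 0.0056 (SE 0.18) in VCF, CCF and RCF. Ift172, another complex B protein, differed by 0.064, 0.13 and 0.04 at its brightest probe, and its tested probes differed in sign in VCF and in CCF against Ctrl. Ift140 of complex A was slightly below the Ctrl mean in each fibre group, by -0.12, -0.062 and -0.13 (SE 0.11 in VCF and RCF), and its other tested probe lay above Ctrl in CCF, at 0.20 (SE 0.31). Ift46 lungs of RCF were close together at 0.16, 0.12, 0.18 and 0.21, and those of CCF were at -0.25, 0.066 and -0.24. RCF exceeded CCF by 0.31 (SE 0.15, adjusted p = 0.656) and VCF by 0.27 (SE 0.14), and the lowest RCF and highest VCF lung were both at 0.12. The other tested Ift46 probe gave 0.055 (SE 0.21) against CCF and 0.17 (SE 0.20) against VCF. Ift74 was the exception in spread, with an SD of 0.49 and lungs from -0.79 to 0.93.

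Spag5 had the smallest p of the members against Ctrl. It encodes astrin, a protein of the mitotic spindle and not of the axoneme. Its levels were 0.011, 0.24 and -0.25 in Ctrl, -0.58, -0.71, -0.39 and -0.56 in VCF, -0.70, -0.63 and 0.063 in CCF and -1.09, -0.76, -0.70 and -0.47 in RCF. All 8 VCF and RCF lungs were below all 3 Ctrl lungs, and 2 of 3 CCF lungs were. The difference was -0.56 (SE 0.20, adjusted p = 0.449) in VCF, -0.76 (SE 0.20, adjusted p = 0.53) in RCF and -0.42 (SE 0.21, adjusted p = 0.773) in CCF, so none passed over all probes. Spag5 was the only member with non-overlapping lungs in these comparisons, 1 of 36 lower in VCF and in RCF, where 2.67% and 3.87% of probes were. At 1 probe per gene, 470 and 677 of 14468 genes were. Spag5 was thus close to the share over all genes. It was also the 1 member at an unadjusted p under 0.05 in VCF and in RCF. With normexp background correction the values were -0.090 (SE 0.64) in VCF and -0.29 (SE 0.64) in RCF. The CCF against Ctrl value was -0.71 on slide 1 and 0.31 on slide 3, and -0.66 without CCF replicate 3.

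Cell division markers, 9 genes such as Mki67 and Ccnb1, lay in the same direction. Their mean was 0.29, 0.20 and -0.49 in Ctrl, -0.41, -0.52, -0.21 and -0.14 in VCF, -0.32, -0.37 and 0.22 in CCF and -0.92, -0.44, -0.21 and -0.34 in RCF. CCF replicate 3 was the fibre lung with the highest value for both Spag5 and these markers, and RCF replicate 1 the one with the lowest for both. With Ctrl replicate 3 at -0.49, the marker mean overlapped Ctrl in every fibre group, whereas Spag5 did not overlap in VCF and RCF. Mki67 itself differed by -0.61 (SE 0.23, adjusted p = 0.853) in RCF. The part of dividing cells in the Spag5 values was not tested. 4 other tested Spag genes lie outside the axoneme, and none passed against Ctrl. Spag1, an assembly factor of dynein arms, differed by -0.22 in VCF, -0.17 in CCF and -0.018 in RCF (SE 0.16 to 0.17). Spag4 differed by -0.29, -0.091 and -0.16 in the same order (SE 0.14 to 0.15). Spag7, named after its values were seen, differed by 0.050, -0.056 and 0.16 (SE 0.19 to 0.21), above Ctrl in VCF and RCF where the other 3 were below. Spag9 differed by -0.0016, -0.26 and -0.058 (SE 0.13 to 0.14), with all 3 CCF lungs below the Ctrl mean at its brightest probe. The tested probes of Spag9 differed in sign in CCF against Ctrl.

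The variation between lungs of the same group was then set against ciliated cells. Each probe was fitted on group and on the mean of the 8 ciliated cell markers (Sntn, Tppp3, Ccdc113, Pifo, Dynlrb2, Ccdc153, Cfap126 and Mlf1, none of them members), so a slope of 1 means that a gene changes as much as the markers do. 5 of the 36 members passed, all with positive slopes (13.9%), where 1.53% of 29263 probes passed with positive slopes. Read like the members at 1 probe per gene, 282 of 14460 genes did. Tekt1 had a slope of 1.16 (SE 0.15, adjusted p = 0.00629), Rsph9 1.09 (SE 0.16, adjusted p = 0.0101), Tekt4 0.79 (SE 0.15, adjusted p = 0.0237), Ift57 0.69 (SE 0.14, adjusted p = 0.0307) and Spag6l 0.80 (SE 0.16, adjusted p = 0.0323). Ift57, a complex B protein, was the only transport gene among them. 23 of 36 had an unadjusted p under 0.05 with a positive slope, against 9.32% of probes and 1443 of 14460 genes. 32 of 36 slopes were above 0, with a median of 0.55, while the median over all genes tested was 0.00045.

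Slopes are given next by role, without a test between roles. The median was 1.00 over the dynein heavy chains, 0.96 over the central pair genes, 0.79 over the tektins, 0.73 over the radial spoke genes, 0.41 over complex B, 0.30 over complex A and 0.046 over the other Spag genes. Foxj1 had 0.73 (SE 0.18, adjusted p = 0.0698). Spag17 had the largest slope, 1.71 (SE 0.49, adjusted p = 0.128), which was -0.00967 (SE 0.45) with normexp background correction. The dynein chains Dnah9 at 1.07 (SE 0.30), Dnah5 at 1.00 (SE 0.41) and Dnah11 at 0.63 (SE 0.28) did not pass either. Nor did Spag16, at 1.13 (SE 0.34, adjusted p = 0.145), whose slope ran from -0.80 to 1.48 over 29 alternatives. Negative slopes belonged to Rsph6a, Tekt2, Spag7 and Spag5, and Spag9 and Dnah8 had 0.046 and 0.099. Tekt2 had -0.38 (SE 0.48), and 0.28 without CCF replicate 2.

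**Figure D4:**
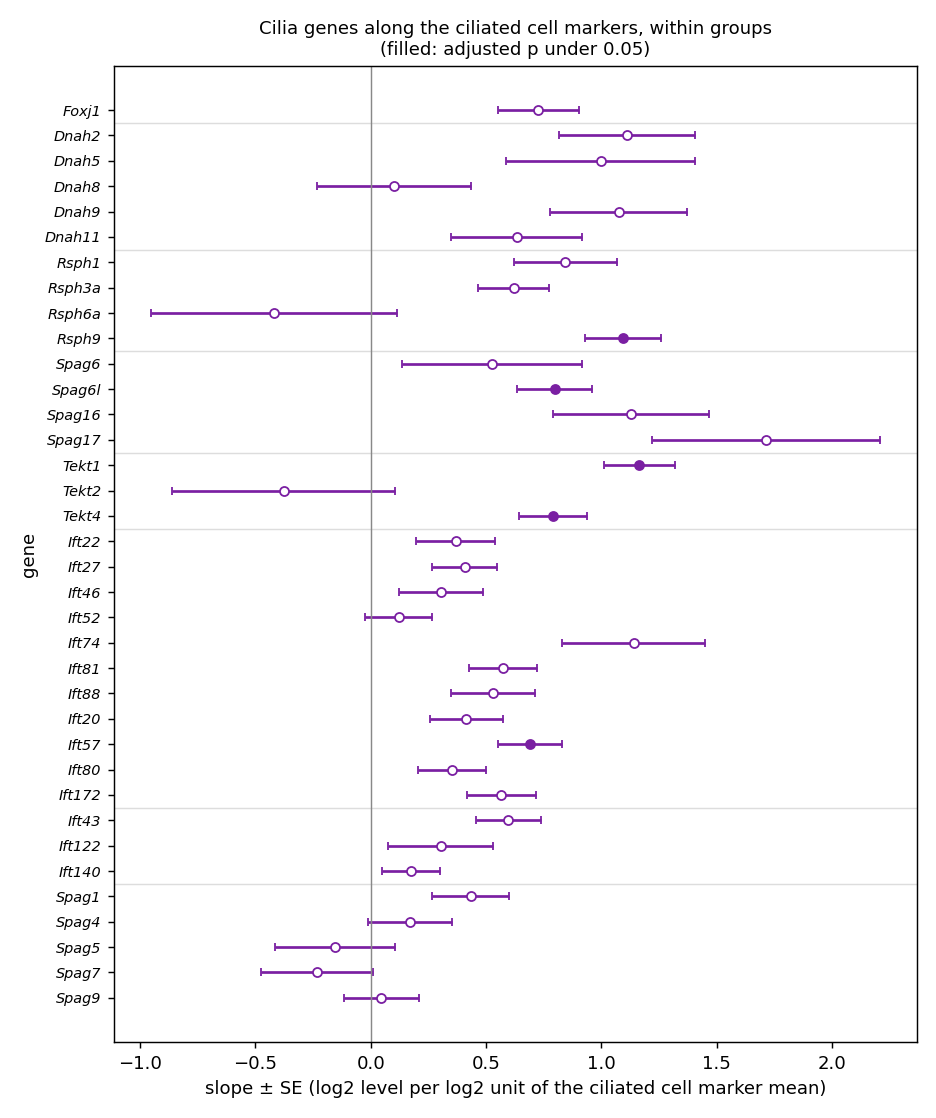
Slope of each tested gene on the mean of the 8 ciliated cell markers with group in the fit (horizontal axis, log2 per log2, bars are the standard error), ordered by role. The 5 filled points passed at an adjusted p under 0.05, and the median is 1.00 for the dynein heavy chains beside 0.41 for complex B.

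**Figure D5:**
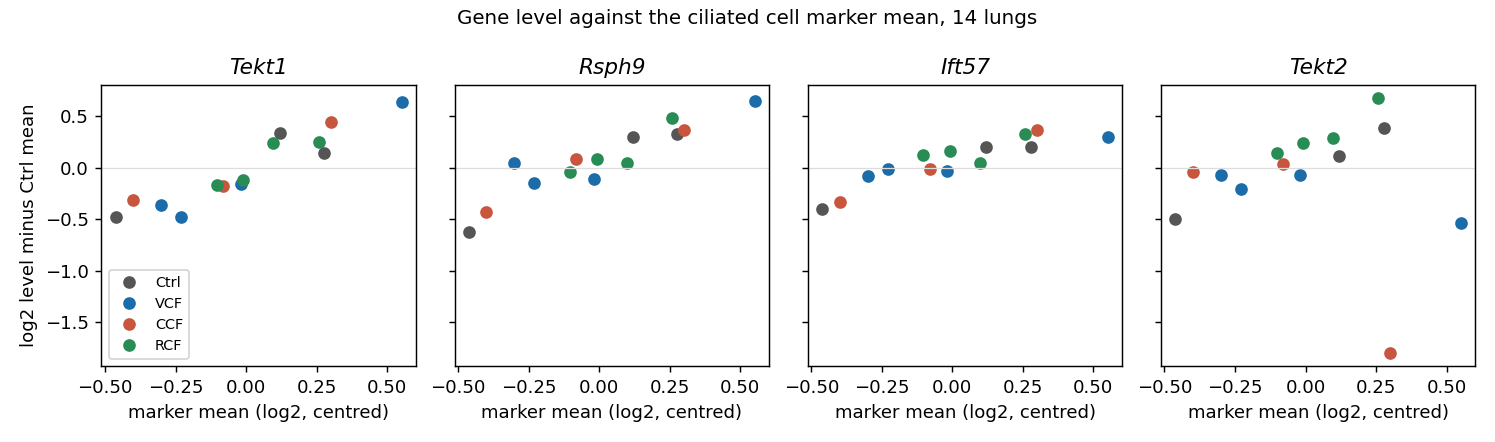
Level of Tekt1, Rsph9, Ift57 and Tekt2 relative to the Ctrl mean (vertical axis, log2) against the ciliated cell marker mean (horizontal axis, log2, centred over the 14 lungs), 1 point per lung coloured by group. Tekt1, Rsph9 and Ift57 rise with the markers at slopes of 1.16, 1.09 and 0.69, and Tekt2 lies low in CCF replicate 2 at -1.80.

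The number of members that passed changed with the lungs kept in the fit. Fits without lungs at the ends of the range also had fewer lungs, and these cannot be told apart. Without VCF replicate 1 and Ctrl replicate 1, the 2 lungs farthest from the median, 0 members and 0 probes passed in limma, while the slopes of Tekt1 and Rsph9 were 1.04 (SE 0.28) and 0.97 (SE 0.29) and the median over members was 0.49. Without the 4 lungs high in liver, thymus or adipose markers 0 members passed and the median was 0.70. Leaving out 1 lung at a time gave 2 to 8 members, with 2 without Ctrl replicate 1, VCF replicate 1 or CCF replicate 2, 3 without Ctrl replicate 2, Ctrl replicate 3, VCF replicate 4 or RCF replicate 1, and 8 without CCF replicate 3. With the slide as a block 5 members passed, of which Tekt1, Rsph9 and Tekt4 were 3 of the same genes.

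Markers of other tissues were fitted along the same ciliated marker mean. All 5 goblet cell markers had positive slopes and 3 passed, with a median slope of 2.68, the only one of these marker lists with more than 1 gene passing. Of 5 basal cell markers 4 had positive slopes and 1 passed, Trp63 (1.83, SE 0.30), with a range from -0.18 to 4.48. Of 5 cartilage markers 4 had positive slopes and 1 passed, Chad (1.78, SE 0.29), with a median of 0.66. All 5 adipose markers (median 2.39), all 5 cardiac muscle markers (median 2.24) and both tested liver markers (median 2.85) had positive slopes, and 0 of them passed. At an unadjusted p under 0.05 in limma with a positive slope were all 5 goblet and all 5 adipose markers. So were 3 of 5 basal, 3 of 5 cartilage, 1 of 5 cardiac muscle and 0 of 2 liver markers, beside 23 of 36 members and 9.32% of probes. Goblet marker means ran from -0.62 to 0.53 in Ctrl, -1.36 to 1.10 in VCF, -1.32 to 0.85 in CCF and -1.10 to 0.46 in RCF. Club cell markers had a median slope of 0.049 with 0 of 6 passing, and none of 5 alveolar type 2, 4 alveolar type 1 and 4 endothelial markers had a positive slope. The part of these other tissues in the members' slopes was not tested.

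Other motile cilia genes, 49 measured genes outside the symbol rule, gave the setting. 21 of the 49 passed along the marker mean with positive slopes, beside 282 of 14460 genes tested. 48 slopes were positive, beside 7237 of all genes tested, and the median was 0.80. The 3 of smallest p were Enkur, a protein of the ciliary axoneme, at 1.07 (SE 0.13), Pih1d2 at 1.15 (SE 0.15) and the dynein docking factor Ttc25 at 1.09 (SE 0.16). Between groups 0 of the 49 passed in each comparison, and their median was -0.093 in VCF, -0.025 in CCF and 0.067 in RCF against Ctrl.

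Against the level of Foxj1 itself, a single probe, 0 of 35 members passed in limma, where 0.0752% of 29270 probes did. 17 of the 35 had an unadjusted p under 0.05 with a positive slope, against 5.49% of probes, and 31 slopes were above 0 with a median of 0.53. The members with the smallest p were Tekt1 at 1.25 (SE 0.22, adjusted p = 0.0637), Rsph1 at 1.10 (SE 0.21) and Tekt4 at 0.89 (SE 0.18). Dnah5 followed with 1.57 (SE 0.34).

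13 members had several tested probes, and the brightest was read. The probes of 1 gene differed in sign for 3 of the 13 in VCF, 6 in CCF and 4 in RCF against Ctrl. Among them were Rsph3a in each, Ift46 and Ift172 in VCF and CCF, Ift140 and Spag9 in CCF and Dnah5 in RCF. Between fibres, probes differed in sign for 7 of the 13 in CCF against VCF, 4 in RCF against VCF and 5 in RCF against CCF. Dnah5 and Ift172 were among these in each.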

How the data were processed

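Total lung RNA, labelled with Cy3, was hybridized to mouse 44K-design arrays, 1 lung per array. Per the file headers, spot intensity in the deposited scanner files was extracted and background-subtracted by Feature Extraction 10.7.3.1 and not normalized between arrays, and other deposited columns flag spots above background or saturated. The authors' deposited table of 27496 probes holds log2 values, and 100% of them equal log2 processed intensity minus 1 constant per array within 0.01. It holds 0 columns of other samples.

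Each array's 75th percentile was subtracted from its log2 processed signal, with spots of a probe averaged and outlier-flagged and control spots left out. A probe was tested if well above background, in at least 0.5 of its spots, on at least 3 of 14 arrays, which left 29271. Probes were named by matching their RefSeq accession to a GRCm38.p6 gene table (24844 probes with 1 symbol, 16330 without); the array grid is of another build, so no probe coordinates are given, and those of the promoters are the RefSeq table's own. Each gene was read at its brightest tested probe. limma 3.58.1 in R 4.3.3 fitted the 4 groups together (10 residual and 2.39 prior degrees of freedom), with two-sided tests and Benjamini-Hochberg adjustment over all probes; slopes were fitted with group as a term. Files were read with the package data.table (1.17.8) and figures drawn with Python 3.11.15 and matplotlib 3.10.9. The fits were tested on simulated data.

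The members and gene lists were chosen with earlier results of these data known. Named genes were those called, the 3 of smallest p in each direction and a panel of 18 members chosen for their roles (Rsph4a had no probe), and for slopes the 5 of smallest and 5 of largest p. Alternatives were normexp on median intensities with an offset of 50, quantile and cyclic loess normalization, the deposited table, other filters, blocks, array weights and left-out lungs.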

Additional observations from a re-analysis of the deposited data

Results flagged for a closer look

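Over 36 genes and 2 list means in the groups of 4 lungs, 4 of 76 sets held a lung far apart from the other 3, about the number that chance gives (1 in 20). Spag17 was at -1.07 in RCF replicate 4, below the other RCF lungs at 0.57 to 0.88. Rsph6a read -0.82 in RCF replicate 2, where its probe was not well above background, so this is no measured level. Spag7 was at 0.51 in RCF replicate 3, and Spag9 at 0.17 in VCF replicate 3.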

How the results depend on the processing

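The median differences kept within the spread of the member mean between lungs (0.18) of their main values in every setting except on some single slides. Among other changes of sign, it turned with normexp for CCF against Ctrl (0.035) and CCF against VCF (0.079), and without Ctrl replicate 1 for RCF against Ctrl (-0.078). Within slides they were 0.26, -0.26 and -0.30 for VCF against Ctrl on slides 1, 2 and 3, -0.31 for CCF against Ctrl on slide 3, 0.46 for RCF against Ctrl and 0.30 for all fibres on slide 1, 0.48 and -0.32 for RCF against VCF on slides 3 and 4, and 0.40 and -0.18 for RCF against CCF on slides 3 and 4, each from 1 lung per group. 0 members passed between groups in any setting with an adjusted p. At an unadjusted p under 0.05 it was 1 in VCF, 1 in RCF and 1 in all fibres against Ctrl and 2 in RCF against CCF. Of 134 named differences 82 changed sign under at least 1 of 26 settings.

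Along the ciliated cell markers 5 members passed, and the count was 13 with normexp background correction, 2 with no filter on dim probes, 10 with no group term, 2 with the markers at even places of the list, 0 without the 2 lungs farthest from the median and 0 without the 4 lungs high in liver, thymus or adipose markers, an alternative added after the data were seen. It was 2 to 8 with 1 lung left out. Along Foxj1 it was 1 with normexp, 2 for probes above background on all arrays, 1 with no group term, and 0 to 1 with 1 lung left out. The cause of these changes was not tested. Settings that left lungs out also had fewer lungs in the fit. Tekt1 passed in 26 of 29 alternatives, Rsph9 in 25, Tekt4 in 21, Ift57 in 14 and Spag6l in 13.

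With the replicate number as a block, 0 members passed along the ciliated cell markers, where the slopes of Tekt1 and Rsph9 were 1.16 (adjusted p = 0.0533) and 1.17 (adjusted p = 0.0546). The median differences with this block were -0.00736 in VCF, -0.084 in CCF and 0.11 in RCF against Ctrl, and 0 members passed between groups. The lungs share only a number: the mean correlation of deviations from group means was 0.011 over 19 same-numbered pairs and 0.17 over the 18 pairs on 1 slide. A fit of only the groups compared could not be made for all fibres against Ctrl, which uses every group.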
